A study of Mus musculus with 2 samples.

Results

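The genes described here encode proteins of the primary granule and of early granulocyte differentiation, namely Elane, Mpo, Prtn3, Ctsg, Ms4a3, Gfi1 and Nkg7. These 7 genes were chosen by symbol from the 24421 genes in the count files, and all 7 were found in both libraries. RNA was measured by RNA-seq in hematopoietic stem cells (HSCs), the bone marrow cells from which all blood lineages derive, with 1 library of each of 2 genotypes on a C57BL/6 background. The WT library carried Ezh2 +/+ CreERT+/- and the other carried Ezh2 Δ/Δ CreERT+/-, so that Cre-ERT, a Cre recombinase that tamoxifen activates, was present in both. Its promoter is not given in the labels. Ezh2 is a histone H3K27 methyltransferase of Polycomb repressive complex 2, and by design its floxed alleles were to be removed only after engraftment. Bone marrow of CD45.2 donors was placed in lethally irradiated CD45.1 hosts, tamoxifen (100 μl of 10 mg/ml) was injected daily over 5 days, and c-kit+ Sca-1+ Lin- cells that carried CD150 and lacked Flt3, CD34 and CD48 were sorted from the hosts after 1 month. The labels give neither the age nor the number of hosts pooled, and the sort as listed does not name CD45.2, by which donor cells could be told from those a host still had.

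Primary (azurophil) granules are the first granules to form in the neutrophil lineage, at the promyelocyte stage. They hold myeloperoxidase and a group of neutral serine proteases, which are activated by cathepsin C and packed on the proteoglycan serglycin, and their genes are transcribed early and then shut off, before the genes of the later granules such as lactoferrin come on. Gfi1 is a zinc-finger repressor that recruits histone-modifying enzymes, restrains HSC proliferation and is needed to make neutrophils.

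Elane and Prtn3, 2 protease genes that lie side by side, are shown with Mpo because the results turn on the ratios among them. Each is given below as the 250 bases before and 50 bases after the annotated start, 5′ to 3′ on the gene's own strand, from RefSeq on GRCm38.p6. Capitals mark GAGGAAG, a core bound by PU.1 (Spi1), searched on both strands. The windows are chr10:79886062-79886361 (plus strand) for Elane, chr10:79879417-79879716 (plus strand) for Prtn3 and chr11:87793534-87793833 (plus strand) for Mpo.
Elane: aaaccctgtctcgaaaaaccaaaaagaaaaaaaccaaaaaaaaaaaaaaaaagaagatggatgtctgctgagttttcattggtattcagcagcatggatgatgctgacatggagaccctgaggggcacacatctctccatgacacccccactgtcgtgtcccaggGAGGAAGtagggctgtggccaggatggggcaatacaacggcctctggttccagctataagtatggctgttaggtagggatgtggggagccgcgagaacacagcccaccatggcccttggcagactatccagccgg
Prtn3: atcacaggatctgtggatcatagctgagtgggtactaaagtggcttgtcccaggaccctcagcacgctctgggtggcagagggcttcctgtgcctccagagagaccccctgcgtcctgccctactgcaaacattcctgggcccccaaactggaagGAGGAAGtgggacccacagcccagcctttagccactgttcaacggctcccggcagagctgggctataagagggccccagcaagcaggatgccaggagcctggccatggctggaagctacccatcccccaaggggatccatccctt
Mpo: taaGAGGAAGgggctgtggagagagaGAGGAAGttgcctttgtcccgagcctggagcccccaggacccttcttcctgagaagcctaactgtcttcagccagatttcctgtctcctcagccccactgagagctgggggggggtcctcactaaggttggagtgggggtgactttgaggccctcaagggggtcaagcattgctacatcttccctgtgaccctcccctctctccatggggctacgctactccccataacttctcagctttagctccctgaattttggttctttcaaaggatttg
The PU.1 core began 85 bases before the start of Elane, 95 before that of Prtn3, and 247 and 224 before that of Mpo. These starts are those of RefSeq. The gene spans given below (GENCODE M21) begin upstream of them for Elane, Prtn3 and Mpo, and the whole Prtn3 window lies inside its span. A window of Ctsg held it as well, 216 bases before the start, so that 4 of the 8 windows of the 7 genes (Gfi1 has 2) contained it, whereas 13.6% of all 32851 windows of that length did. The letters TTGCNNAA, a C/EBP core, were found in 1 window of Gfi1 (143 bases before the start) and in that of Ms4a3 (41 bases after it), and in 10.8% of all windows. The letters AAATCA, a Gfi1 core, were in 0 of the 8 windows and in 14.0% of all windows. The motifs do not overlap one another in these windows, and a match of letters is a description, not a binding site.

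The gene counts summed to 5763118 in the WT library and to 4157280 in the Ezh2 KO-labelled library. A count of 3, used here as the limit of detection, corresponds to 0.521 and 0.722 CPM (counts scaled by the library's gene total). Levels are given as raw counts and as counts normalised by size factors, and a ratio is log2 of the normalised count + 1 in the Ezh2 KO-labelled library over that in WT. With 1 library per group there was no replicate, so no p-value could be given, and the 95% intervals cover counting error only. Reads were amplified without molecular identifiers, so the true error is larger.

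The Ezh2 count was 166 in WT and 129 in the Ezh2 KO-labelled library (log2 ratio 0.08, interval -0.27 to 0.42), which does not show the deletion. A count over the whole gene can miss the loss of some exons, and the name "Ezh2 KO-labelled library" is therefore kept throughout. Xist had 801 and 4 counts, whereas the Y-linked Ddx3y, Eif2s3y, Kdm5d and Uty had 0 in WT and between 106 and 275 in the other library, so the sex of the cells and the genotype cannot be told apart. HSC markers were present in both, with Kit at 6062 and 4394 counts and Meis1 at 3212 and 2230, and 0 of 12 were 2-fold apart. At 1.5-fold, however, 3 of the 12 were lower in the Ezh2 KO-labelled library, namely Slamf1 (log2 ratio -0.62), Fgd5 (-0.59) and Ctnnal1 (-0.70), and 0 were higher. Of all genes with a mean of at least 1 CPM, 10% were at least 1.5-fold lower and 10.5% higher, and 3.9% were at least 2-fold lower and 4.91% higher. Among the genes used for sorting, Slamf1 (CD150) had 520 and 248 counts (interval of the log2 ratio -0.85 to -0.41), Cd34 957 and 829 (0.23, interval 0.10 to 0.37), and Cd48 12 and 11 (0.29, interval -1.01 to 1.62). Flt3, which the sort selected against, had 98 and 140 counts and was higher in the Ezh2 KO-labelled library (0.95, interval 0.57 to 1.34). The part of these marker differences in the ratios of the 7 genes was not tested.

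None of the 7 genes differed by 2-fold between the libraries, and their median log2 ratio was -0.01. Elane was lower in the Ezh2 KO-labelled library, at 59.1% of its normalised count in WT, whereas Mpo was at 116.3%, Prtn3 at 95.1%, Ctsg at 99.1% and Gfi1 at 92.2%. Ms4a3 and Nkg7 were at 128.8% and 127.6%, with intervals that included no difference. Among all 12588 genes with a mean of at least 1 CPM, 4.91% were at least 2-fold higher and 3.9% at least 2-fold lower, so 0 of 7 members in either direction is near this background. At 1.5-fold, 1 member (Elane) was lower and 0 were higher, against 10% and 10.5% of all genes. The counting interval lay below 0 for 1 member (Elane) and above 0 for 1 (Mpo), against 20.8% and 19.2% of all genes. The share of members past each threshold was thus not far from that of all genes, and the description rests on single genes rather than on the group.

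**Figure D1:**
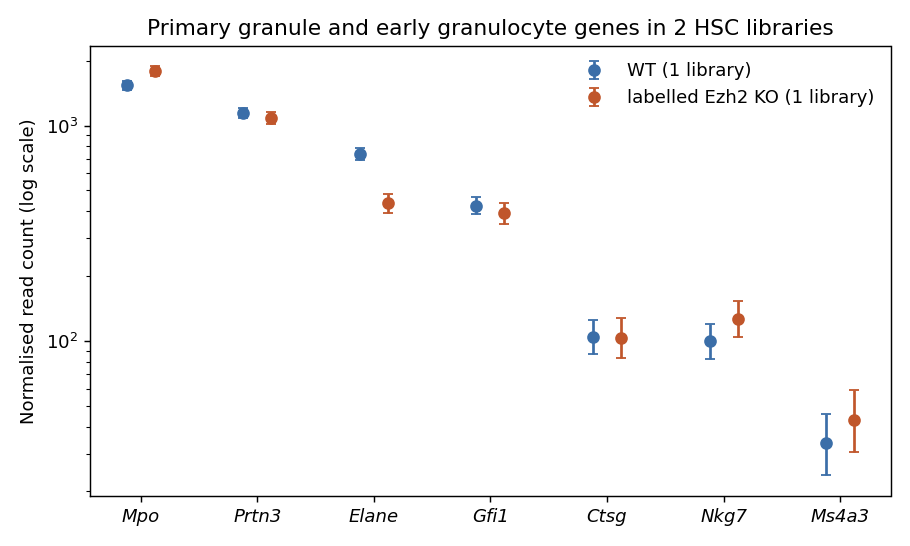
Normalised read counts (log axis) of the 7 genes in the WT library (blue) and the Ezh2 KO-labelled library (orange), ordered by the WT level. Bars are exact 95% Poisson intervals of 1 library each, which do not overlap for Elane (738.0 and 435.8) or Mpo (1539.5 and 1789.9) and overlap for the other 5.

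Among the serine proteases, Elane encodes neutrophil elastase, which cleaves elastin and bacterial proteins. It spans chr10:79886247-79888215 on the plus strand (mm10, GENCODE M21). Elane had 860 counts (738.0 normalised) in WT and 374 counts (435.8 normalised) in the Ezh2 KO-labelled library, and the counting intervals of the levels, 689 to 789 and 393 to 482, did not overlap. The log2 ratio was -0.76 (interval -0.94 to -0.58), a 1.69-fold lower level.

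Because counting error understates the spread between libraries, the ratio was also set against genes of like abundance. Their spread is across genes within this 1 pair of libraries and does not measure how Elane varies between replicates. Genes were divided by mean level into 10 bins, and in the bin of Elane, which comprised 1259 genes, the robust SD of log2 ratios was 0.23 around a median of -0.03. Elane was 3.17 robust SDs below that median, and 10 of the 1259 genes (Elane included), or 0.794%, were as low or lower. Elane had the lowest ratio of the 7 members, and this share is not a p-value. Of all genes tested, 3.82% were at least 2 robust SDs below the median of their bin and 3.35% at least 2 above, and Elane was the only member past either limit.

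Prtn3 encodes proteinase 3, a close relative of elastase, and spans chr10:79874476-79883174 on the plus strand. It had 1332 counts (1143.1 normalised) in WT and 933 counts (1087.2 normalised) in the Ezh2 KO-labelled library. The log2 ratio of Prtn3 was -0.07 (interval -0.19 to 0.05), so no difference was seen beyond counting error.

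Ctsg encodes cathepsin G, a protease with chymotrypsin-like specificity, and spans chr14:56099881-56102574 on the minus strand. It had 122 counts (104.7 normalised) in WT and 89 counts (103.7 normalised) in the Ezh2 KO-labelled library. The log2 ratio of Ctsg was -0.01, with an interval of -0.42 to 0.39, and a difference inside that interval was not detectable at this depth.

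Mpo encodes myeloperoxidase, the heme enzyme that makes hypochlorous acid, and spans chr11:87793581-87804413 on the plus strand. It had the highest counts of the group, 1794 (1539.5 normalised) in WT and 1536 (1789.9 normalised) in the Ezh2 KO-labelled library. The log2 ratio of Mpo was 0.22 (interval 0.12 to 0.32), which was 1.23 robust SDs above the median of its bin. Mpo was therefore higher beyond counting error but within the range of genes of like abundance.

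Of the membrane proteins, Ms4a3 belongs to the four-span MS4A family and is transcribed at the granulocyte-monocyte progenitor stage. It spans chr19:11629496-11640851 on the minus strand. Ms4a3 was the lowest of the group, with 39 counts (33.5 normalised) in WT and 37 counts (43.1 normalised) in the Ezh2 KO-labelled library. Its log2 ratio of 0.36 had an interval of -0.32 to 1.05.

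Nkg7 encodes a granule membrane protein best known from cytotoxic lymphocytes and also transcribed in myeloid progenitors. It spans chr7:43437073-43438249 on the plus strand. Nkg7 had 116 counts (99.5 normalised) in WT and 109 counts (127.0 normalised) in the Ezh2 KO-labelled library. Its log2 ratio was 0.35 (interval -0.04 to 0.74), with the lower bound just under 0.

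Gfi1, the transcription factor of the group, spans chr5:107716657-107726036 on the minus strand. It had 495 counts (424.8 normalised) in WT and 336 counts (391.5 normalised) in the Ezh2 KO-labelled library. The log2 ratio of Gfi1 was -0.12 (interval -0.32 to 0.09), 0.39 robust SDs below the median of its bin.

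**Figure D2:**
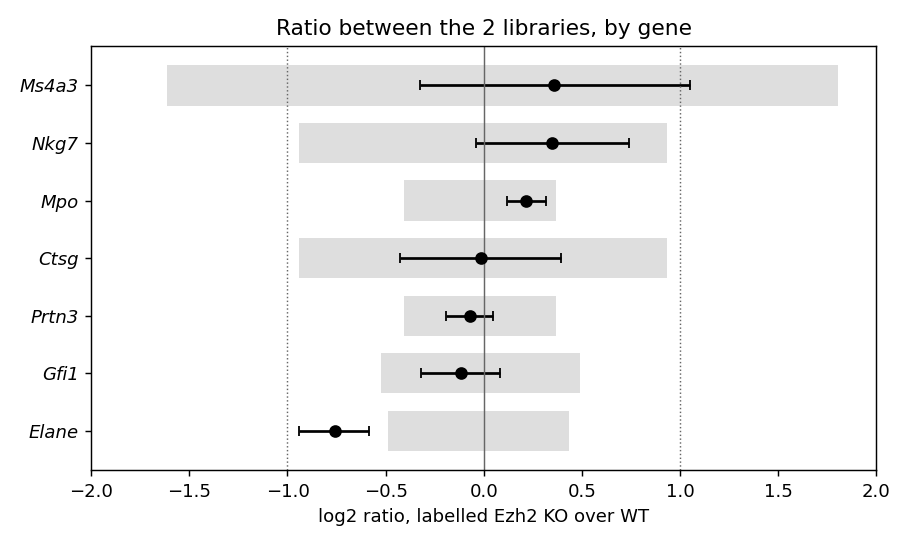
Log2 ratio of each gene (labelled Ezh2 KO over WT, horizontal axis) with its 95% counting interval. Grey boxes span 2 robust SDs on each side of the median ratio of genes in the same bin of mean level, and dotted lines mark 2-fold; the point of Elane (-0.76) lies outside its box, and the other 6 points lie inside theirs.

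The same difference was seen within each library, where scaling between libraries plays no part. Elane had 0.646 counts for each Prtn3 count in WT and 0.401 in the Ezh2 KO-labelled library, a log2 difference of -0.69 (interval -0.90 to -0.47). Against Mpo the ratio was 0.479 and 0.243, a log2 difference of -0.98 (interval -1.18 to -0.77). Relative to each of the other 6 members, from Gfi1 (-0.64) to Ms4a3 (-1.12), Elane was lower with an interval below 0.

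The ratios that did not involve Elane differed less. Mpo had 1.35 counts per Prtn3 count in WT and 1.65 in the Ezh2 KO-labelled library (log2 difference 0.29, interval 0.13 to 0.45), and Mpo relative to Gfi1 differed by 0.33 (interval 0.11 to 0.56). Prtn3 relative to Gfi1 differed by 0.05 (interval -0.19 to 0.28). Nkg7 relative to Prtn3 differed by 0.42 (interval 0.01 to 0.83) and relative to Gfi1 by 0.47 (interval 0.03 to 0.91), with lower bounds close to 0.

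The group as a whole took a like share of the gene counts in both libraries. Its summed counts were 4758 in WT and 3414 in the Ezh2 KO-labelled library, or 0.0826% (exact interval 0.0802% to 0.0849%) and 0.0821% (0.0794% to 0.0849%) of gene counts. The log2 ratio of the summed normalised counts was -0.04 (interval -0.10 to 0.03), and 0.08 without Elane. The makeup of that sum differed. Elane gave 18.1% of the members' counts in WT and 10.95% in the Ezh2 KO-labelled library, whereas Mpo gave 37.7% and 45.0%, and Mpo, Prtn3 and Elane together gave 83.8% and 83.3%.

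On a scale per length (CPM per kb of annotated exon), Elane was the highest member in WT at 151.7 (interval 141.7 to 162.1), followed by Prtn3 at 133.4, Mpo at 90.9, Gfi1 at 27.0, Nkg7 at 22.0, Ctsg at 20.5 and Ms4a3 at 3.59. In the Ezh2 KO-labelled library, Prtn3 came first at 129.6, then Mpo at 107.9, Elane at 91.4 (interval 82.4 to 101.2), Nkg7 at 28.7, Gfi1 at 25.4, Ctsg at 20.7 and Ms4a3 at 4.72. The counting intervals of neighbours in this order did not overlap among Elane, Prtn3 and Mpo, and overlapped among Gfi1, Nkg7 and Ctsg, in both libraries. The first place in WT depends on the length used. With the longest transcript that has a curated RefSeq accession in place of all annotated exons (1025 instead of 1732 bases for Prtn3), the WT level per kb was 225.5 for Prtn3 and 151.7 for Elane, and Elane stood below Prtn3 in WT and below both Prtn3 and Mpo in the Ezh2 KO-labelled library. Among all 12588 genes by raw abundance, Mpo exceeded 96.1% of genes in WT and 96.9% in the Ezh2 KO-labelled library, and Elane 88.0% and 77.1%.

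Since 2 libraries give 1 ratio per gene, no gene can be called like another in pattern. There were 363 tested genes, or 2.88%, within 0.1 of the log2 ratio of Elane, and 2717 (21.6%) within 0.1 of that of Prtn3.

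**Figure D3:**
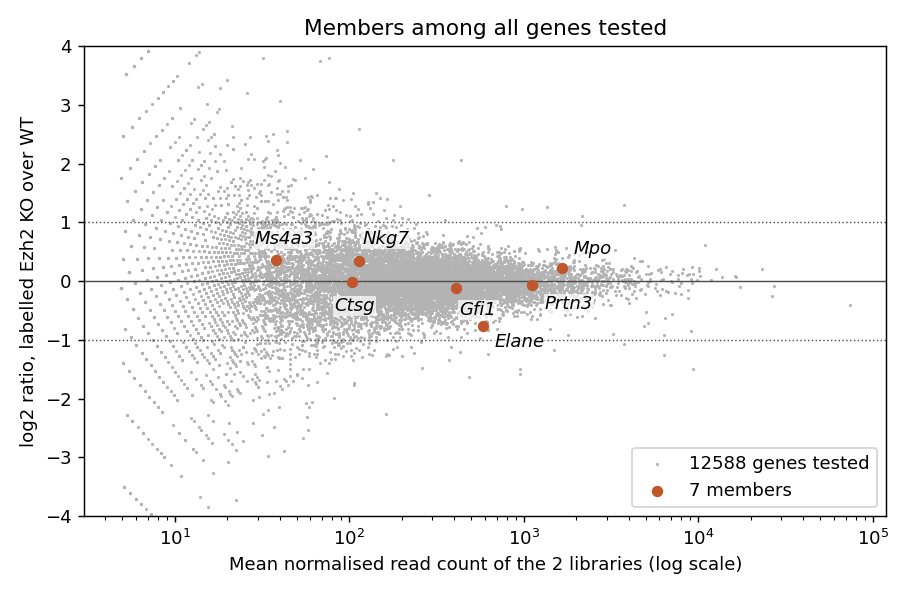
Log2 ratio (labelled Ezh2 KO over WT) against the mean normalised read count of the 2 libraries (log axis) for 12588 genes, in grey, with the 7 members in orange. Dotted lines mark 2-fold and 50 genes lie beyond the vertical axis; 6 members sit within the bulk of genes of their abundance and Elane (-0.76) sits at its lower edge.

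Genes whose products act on or beside the granule proteases were examined next. Of 23 such genes, 22 were tested, 0 were 2-fold apart, and their median log2 ratio was 0.08 against -0.003 for all genes tested. Of all genes tested, 4.91% were at least 2-fold higher and 3.9% lower. The 3 most abundant were Srgn, encoding serglycin (4431 counts in WT and 3280 in the Ezh2 KO-labelled library, 0.01), Lyz2, encoding lysozyme (2848 and 2512, 0.26), and the tetraspanin Cd63 (2628 and 1918, -0.01). Bpi had 0 counts in both. Ctsc, whose product cathepsin C activates the proteases, had 589 and 466 counts (0.10, interval -0.07 to 0.28). The intracellular inhibitor gene Serpinb1a, whose product blocks elastase, proteinase 3 and cathepsin G, had 470 and 445 counts (0.36, interval 0.17 to 0.55), and Serpinb6a, encoding an inhibitor of cathepsin G, had 295 and 373 counts (0.78, interval 0.56 to 1.01). Intervals below 0 were found for the lysosomal enzyme genes Hexa (1078 and 627 counts, -0.34) and Gusb (829 and 542, -0.17) and for Vps13b, which encodes a Golgi protein (299 and 125, -0.81).

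Of 27 transcription factors of the lineage and cofactors and targets of Gfi1, 1 was at least 2-fold higher and 1 at least 2-fold lower, with a median of -0.08. The shares of all tested genes were 4.91% and 3.9%. Lef1, a factor of the Wnt pathway, had 3 counts in WT and 24 in the Ezh2 KO-labelled library (3.02, interval 1.72 to 5.82). Egr2, a zinc-finger factor of the monocyte side, had 18 and 0 counts, at least 4.42-fold lower against the limit of 3 counts in that library. The 3 most abundant of this list, Meis1 (-0.08), Myb (1786 and 1794 counts, 0.45) and Hdac1 (1205 and 889, 0.00), were less than 2-fold apart. Spi1, which encodes PU.1, had 772 and 553 counts (-0.04, interval -0.20 to 0.12). Gfi1b, the paralog of Gfi1, had 587 and 556 counts (0.36, interval 0.19 to 0.53), and Kdm1a, a demethylase that Gfi1 recruits, had 896 and 541 (-0.29, interval -0.44 to -0.13).

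Of 28 genes transcribed in granulocyte-monocyte progenitors, 5 were at least 2-fold higher and 1 lower, with a median of 0.22. The shares of all tested genes were 4.91% and 3.9%. Cebpe, the C/EBP factor of the promyelocyte to myelocyte step, had 20 counts in WT and 59 in the Ezh2 KO-labelled library (1.94, interval 1.25 to 2.81). Igsf6 (14 and 65 counts, 2.56), the Fc receptor gene Fcgr3 (20 and 39, 1.35) and Fcnb, which encodes ficolin B (81 and 131, 1.12), were also higher. Csf1r, the receptor of the macrophage growth factor, was lower with 24 and 5 counts (-1.66, interval -3.57 to -0.40). The 3 most abundant were Cd34 (957 and 829, 0.23), Ramp1 (902 and 839, 0.34) and Emb (881 and 664, 0.03).

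The list of late neutrophil granule genes differed from the primary granule members in its values. It also holds genes of proteins outside granules, such as the receptor gene Ltb4r1. Of the 23 genes of this list in the files, 21 were tested, 11 were at least 2-fold higher, 0 were 2-fold lower, and the median log2 ratio was 1.11. The shares of all tested genes were 4.91% higher and 3.9% lower. Ngp had 2549 counts in WT and 4621 in the Ezh2 KO-labelled library (1.30, interval 1.23 to 1.37), and the alarmin gene S100a8 had 1595 and 2529 counts (1.11, interval 1.02 to 1.20). S100a9, its partner, had 1689 and 2421 counts (0.96, interval 0.87 to 1.05). Among the other genes past 2-fold, Ltf, which encodes lactoferrin, had 930 and 1646 counts (1.26), Camp 683 and 1174 (1.22), Lcn2 538 and 964 (1.28) and Cd177 176 and 360 (1.47). Wfdc21 (1.42), Itgb2l (1.90), Ltb4r1 (1.61), Retnlg (1 and 20 counts) and Mmp25 (0 and 13 counts) made up the rest, and only Padi4 had a ratio below 0 (-0.39). Ceacam10 had 0 and 2 counts.

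**Figure D4:**
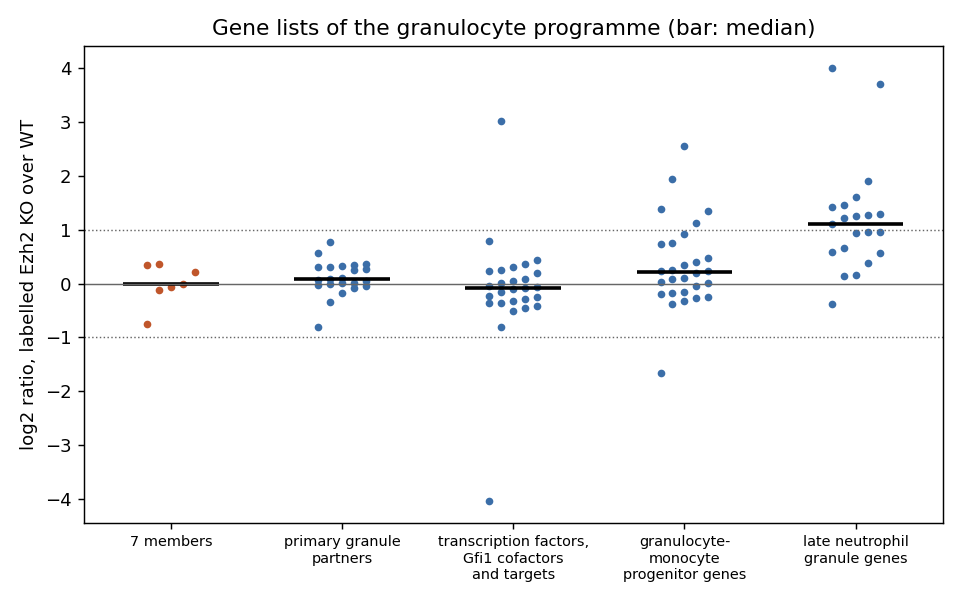
Log2 ratio (labelled Ezh2 KO over WT) of each tested gene in 5 lists, 1 point per gene, with the list's median as a black bar (members -0.01, partners 0.08, transcription factors -0.08, progenitor genes 0.22, late granule genes 1.11). Dotted lines mark 2-fold, and the lowest point, Egr2, had 0 counts in the Ezh2 KO-labelled library, so its position depends on the added count of 1.

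The summed level of the late granule list was 2026 CPM in WT and 4071 CPM in the Ezh2 KO-labelled library, while that of the 7 members was 826 and 821 CPM. Eosinophil genes moved with the libraries as well, and 7 of 11 were tested and at least 2-fold higher, against 4.91% of all tested genes. Prg2, which encodes major basic protein, had 0 counts in WT and 2030 in the Ezh2 KO-labelled library, at least 919-fold higher, and Epx, which encodes eosinophil peroxidase, had 0 and 1000, at least 453-fold higher. The list summed to 2.78 and 782 CPM, with Prg3 (0 and 116 counts), Ear1 (0 and 49) and Ear6 (0 and 29) also at 0 in WT, and Ear10 at 0 in both. Of the eosinophil genes under the CPM minimum, Ccr3 and Siglecf each had 5 and 4 counts and Alox15 had 4 and 0. In bulk samples fewer cells of a type and less RNA per cell cannot be told apart, and the part of late neutrophil or eosinophil RNA in the ratios of Elane and Mpo was not tested.

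Lists of markers of other cells were read beside the members, and their part in the members' ratios was not tested. Of 12 basophil and mast cell genes, 3 were tested and 9 had at most 3 counts in both libraries (Mcpt8, Ms4a2, Fcer1a, Mcpt1, Mcpt2, Mcpt4, Cma1, Tpsab1 and Tpsb2), and the list summed to 7.81 and 15.9 CPM. Of the 3 tested, 1 was at least 2-fold higher and 0 lower, against 4.91% and 3.9% of all tested genes. That gene was Prss34 (0 and 9 counts, log2 ratio 3.52). Those with the most counts, Hdc (30 and 36) and Cpa3 (15 and 16), were less than 2-fold apart. For Nkg7, natural killer and T cell genes are of interest, and 12 of 20 had at most 3 counts in both libraries, including Cd3d, Cd3e, Gzma, Gzmb and Tbx21, which had 0 in both. Of the 20, 6 were tested, with 4 at least 2-fold higher and 1 lower, against 4.91% and 3.9% of all tested genes. The list summed to 24.5 and 25.7 CPM, a sum of genes that went opposite ways. Klrb1c, which encodes NK1.1, had 116 and 14 counts (-2.54, interval -3.52 to -1.80). The 4 higher genes had few counts, namely Il2rb (0 and 34), Ccl5 (11 and 21), Klrk1 (0 and 10) and Cd3g (0 and 9). Prf1 (0 and 7 counts) and Ncr1 (0 and 4) were under the CPM minimum. Klrb1c and Nkg7 both had 116 counts in WT, but 14 and 109 in the Ezh2 KO-labelled library. Of 14 monocyte genes, 10 were tested. At 2-fold, 1 was higher (Adgre1, 0 and 9 counts) and 1 lower (F13a1, 15 and 0 counts), against 4.91% and 3.9% of all tested genes. The list summed to 124 and 125 CPM. Ms4a6b (157 and 127 counts), Ctss (142 and 119), Ms4a6c (126 and 81), Ly6c2 (101 and 86) and Cd68 (89 and 48) had counts like those of Ctsg and Nkg7, whereas Ccr2, Fcgr1, Cx3cr1 and Ms4a7 were at or under 3 counts in both.

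Neighbours of the members within 100 kb were compared, some of which belong to the same gene family. Elane and Prtn3 are 3073 bases apart on the same strand, yet their log2 ratios were -0.76 and -0.07. Cfd, which encodes complement factor D and lies 2638 bases beyond Elane, had 2 and 0 counts. Prss57, a granule protease gene of the same stretch, had 41 counts in WT and 45 in the Ezh2 KO-labelled library (0.56, interval -0.07 to 1.22). Med16, 6493 bases from Elane, had 901 and 946 counts (0.51, interval 0.38 to 0.64), and Lppr3, 11613 bases away on the opposite strand, had 1284 and 1386 (0.55, interval 0.44 to 0.66). Of the 16 neighbours of Elane, 12 were tested, 5 had a ratio below 0 and 1 was 2-fold apart (Kiss1r, 19 and 29 counts, 1.01).

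Mpo has 2 other peroxidase genes nearby. Lpo, 2015 bases away, had 0 counts in both libraries, whereas Epx, 59587 bases away, is the eosinophil gene described above. Ctsg lies in the cluster of granzyme and mast cell protease genes, and none of its 11 neighbours was tested. Next to Ms4a3, Ms4a2 had 0 counts in both, Ms4a6d 15 and 5, and Ms4a6b 157 and 127 (0.13). Evi5, 18759 bases from Gfi1, had 236 and 111 counts (-0.64, interval -0.99 to -0.32), and beside Nkg7 the mitochondrial gene Etfb had 1287 and 1133 counts (0.26). Over the 61 neighbours of all members, 28 were tested, 12 had a ratio below 0 (50.4% of all tested genes did) and 7 were 2-fold apart, 5 of them higher and 2 lower, against 4.91% and 3.9% of all tested genes. Besides Epx, these 7 had few counts, namely Kiss1r, Ms4a6d, Siglecg (0 and 16), Bzrap1 (13 and 0), Rnf43 (2 and 12) and Fstl3 (7 and 24).

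Some members share sequence with a gene on the opposite strand, and whether counting used strand is not given in the sources used here. Mpo overlaps Gm11505 and shares 8.18% of its 61-base words with it, Prtn3 shares 5.84% with Plppr3 (Lppr3 in the files) and Gfi1 shares 0.70% with A430072P03Rik. Elane, Ctsg, Ms4a3 and Nkg7 shared 0 such words with transcripts of any other annotated gene; copies with mismatches and unannotated copies were not searched.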

How the data were processed

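The deposited files hold raw read counts per gene symbol that the authors made from mouse (mm10) RNA-seq reads of 61 cycles. The submitters' processing notes name TopHat2 2.0.13, Bowtie2 2.1.0, StringTie, edgeR and bedtools, with no role. The RNA-seq methods of the paper name StringTie as the source of raw counts, but the paper does not describe this Ezh2 experiment. Which program made these counts, and whether counting used strand, is therefore not given in the sources used here. RNA was amplified with a SMARTer kit. The 5 entries that name no gene (no feature 44.9% in WT and 44.1% in the Ezh2 KO-labelled library, ambiguous 0.532% and 0.539%, not unique 10.7% and 12.3%) were left out of totals.

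Size factors (1.17 and 0.858) were medians of ratios (DESeq2 1.42.0, R 4.3.3). Ratios used a pseudocount of 1 and genes with a mean of at least 1 CPM. With 1 library per group neither edgeR nor DESeq2 can test the difference. Intervals are exact (Clopper-Pearson on the split of a gene's counts, or Poisson for a level; scipy 1.17.1), at 95%. The script was tested on simulated data drawn with counting error only, the error that the intervals assume. That test therefore checks the code and says nothing about the spread between replicates. TMM scaling (edgeR 4.0.16), total counts, pseudocounts of 0.5 and 5, filters of 10 CPM and none, thinning of WT and other thresholds were tried. Positions and exons are from GENCODE M21, where 23376 symbols matched directly and 645 by an older name.

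Named were all 7 members; of other lists, genes 2-fold or more apart whose mean normalised count was 10 or above, the 3 highest, and defining markers at or under 3 counts; of neighbours, family members or those above the same mean. Examples from these are given, and Ctsc, Serpinb1a, Serpinb6a, Vps13b, Hexa, Gusb, Spi1, Gfi1b, Kdm1a, Egr2, Padi4, Mmp25, F13a1, Adgre1, Ms4a6c, Ly6c2, Cd68, Ccr3, Siglecf, Alox15, Prss34, Cd3g, Klrk1, Prf1, Ncr1, Fgd5, Ctnnal1, Bzrap1 and Rnf43 were added after their values were seen. Members and lists were chosen with earlier results of these data known. Protein identity among the proteases was planned and not run. Some genes of the lists are not reported here by name.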

Additional observations from a re-analysis of the deposited data

Results flagged for a closer look

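The share of file entries whose reads aligned to more than 1 place, which no comparison uses, was 12.3% in the Ezh2 KO-labelled library and 10.7% in WT. Its relation to the values above was not tested.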

How the results depend on the processing

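Under TMM scaling, total counts and thinning of WT (1 draw), only Elane had an interval below 0 and only Mpo had an interval above 0. Pseudocounts and filters do not enter the intervals, so those alternatives could not change this result. Over the changes of scaling, pseudocount and thinning, the log2 ratio of Elane lay between -0.76 and -0.73. That of Mpo lay between 0.22 and 0.25. The count of members at least 2-fold lower, 0, became 1 at 1.5-fold and 1 at 2 robust SDs. The median log2 ratio of the members, -0.01, was 0.02 with total gene counts and 0.12 with WT thinned to the other total, where the ratio of Ctsg also changed sign (0.02 and 0.12). As a share of all file entries, genes and others, the members were 0.0362% in WT and 0.0354% in the Ezh2 KO-labelled library. The log2 ratio of the summed members was 0.083 when Elane was left out, an alternative added after the data were seen, as was the other transcript length. At a minimum of 10 CPM, Ms4a3 was not tested. No paired analysis was possible because there is 1 library of each genotype, and none could be left out. Depth limits Ms4a3, Ctsg and Nkg7 most.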
